A study of Caenorhabditis elegans with 12 samples.

Results

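The 9 genes described here, mex-1, mex-3, mex-5, mex-6, pos-1, pie-1, nos-2, mbk-2 and meg-1, encode maternal proteins that set cell polarity and cell fate in the early embryo of the nematode Caenorhabditis elegans. They were picked from a list of WormBase symbols, with earlier results of these data known. All 9 were found among the 24619 genes of the deposited tables, and all 9 passed the filter on low values in every comparison. The data are poly-A RNA-seq of whole young adults, with 3 libraries in each of 4 groups. For all groups the growth time is given as 72 h in the growth protocol and as 60 h in the series design. The wild-type strain was N2, and the adr-2(-) strain was BB20 with the genotype adr-2(ok735). Each strain was fed from hatching on RNAi bacteria, with the empty vector in the control groups and with sqd-1 RNAi in the others. The gene adr-2 encodes an RNA-editing enzyme of the ADAR family, and sqd-1 encodes an RNA-binding protein. Crossing the 2 genotypes with the 2 feeding treatments asks what depletion of sqd-1 does in each genotype and what loss of adr-2 does on each treatment. The 2 adr-2(-) groups carry the same single deletion allele, and whole animals mix germline with all somatic tissues.

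In C. elegans the transcripts of these genes are made in the germline and loaded into the oocyte, where many are held silent until fertilization. After fertilization the anterior proteins MEX-5 and MEX-6 and the kinase MBK-2 help to restrict POS-1, MEX-1, PIE-1 and the P granules to the posterior. The RNA-binding proteins then control which maternal transcripts are translated in each early cell, while PIE-1 and NOS-2 protect the germline fate.

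The libraries held 29.0 to 34.0 M reads, of which 12.9 to 23.8 M lay outside ribosomal RNA genes. As a check of the labels, sqd-1 was left at 9.71% of its control level in wild-type animals on sqd-1 RNAi and at 7.09% in adr-2(-) animals. The gene adr-2 had at most 4 reads in each adr-2(-) library. It also fell on sqd-1 RNAi in wild-type animals, by 1.21 on the log2 scale (limma adjusted p = 8.82e-05). Markers of the zygotic embryo were near 0 in every group: the 7 measured of 8 listed summed to between 6.94 and 37.2 normalized counts per library, with med-1 and ceh-51 at 0 reads in all wild-type control libraries. The adr-2(-) libraries varied more than the wild-type ones, and the second adr-2(-) replicate stood apart with the highest intestinal marker sums of its groups, 27398 on control RNAi and 29430 on sqd-1 RNAi. The labels do not say whether the replicates were separate cultures, so p-values measure only the spread between these libraries.

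Levels are given as normalized counts, which are the authors' reads per gene put on one scale over all 12 libraries. In the wild-type control group each of the 9 had a higher count than 73.3% (nos-2) to 98.2% (mex-5) of the genes compared. Those were the genes with a mean of at least 10 over the 12 libraries. Such counts also grow with exon length. Levels can be ordered between genes only per kilobase of exon. On that scale pos-1 stood first at 5429 ± 857.3 (SD, n = 3) normalized counts per kb. It was followed by mex-5 at 4372 ± 719.5, and the libraries of these 2 genes overlapped. A gap then separated mex-5 from mex-3 at 2548 ± 208.2, which overlapped with mex-6 at 2178 ± 363.9, and mex-6 with mex-1 at 1789 ± 303.6. A second gap led to mbk-2 at 878.8 ± 133.0, pie-1 at 811.9 ± 143.3, meg-1 at 694.6 ± 108.7 and nos-2 at 641.3 ± 171.4, where each neighbour overlapped with the next. The exon lengths merge all annotated exons of a gene, 4.84 kb for mbk-2. A transcript that uses fewer of them would have a higher level per kb than given here. In the adr-2(-) control group pos-1 was again first at 9449 ± 4028 normalized counts per kb and no neighbours in the order were apart. On sqd-1 RNAi the wild-type order began with mex-5 at 1062 ± 343.6, and mbk-2 had rank 4 at 450.3 ± 46.1 normalized counts per kb.

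**Figure D1:**
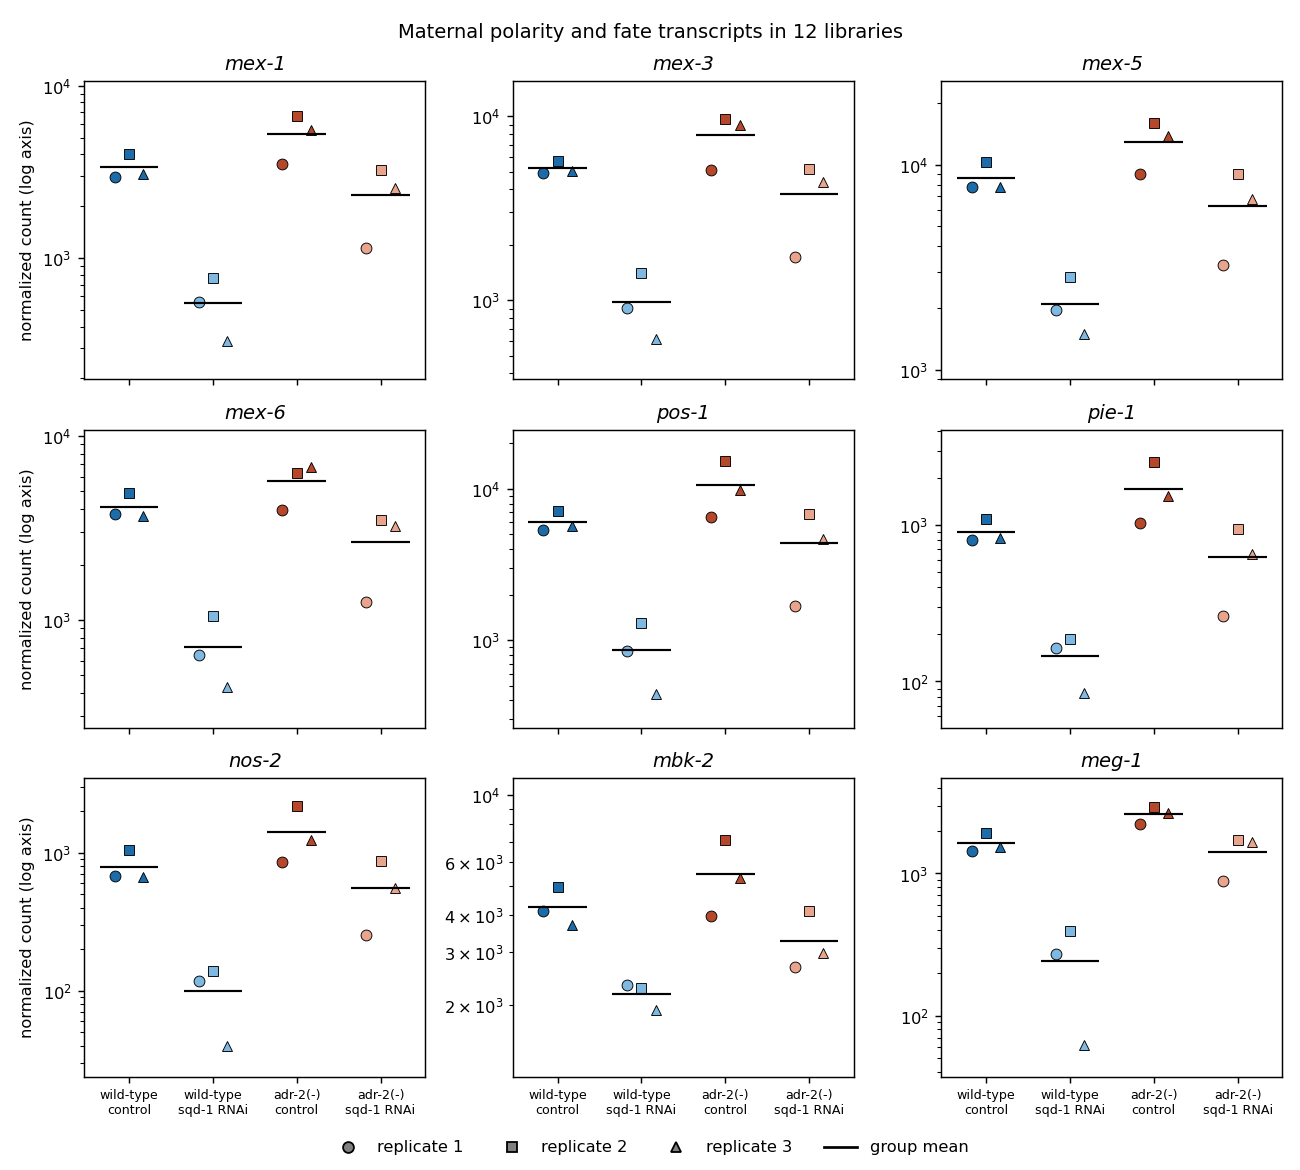
Normalized counts of the 9 transcripts in each of the 12 libraries (y axis, log scale), one panel per gene, with the 4 groups on the x axis, replicates by symbol and the group mean as a line. In every panel the 3 wild-type sqd-1 RNAi libraries lie below the 3 wild-type control libraries, and the mbk-2 panel spans the narrowest range.

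On sqd-1 RNAi all 9 transcripts fell in wild-type animals. Of the control level, between 12.5% (nos-2) and 24.3% (mex-5) was left for 8 of them, and 51.2% was left for mbk-2. The anterior regulators, the posterior RNA-binding proteins, the germline factors and the P granule gene meg-1 all fell together. For each of the 9 genes every sqd-1 RNAi library lay below every control library, which was also true of 35.6% of all genes tested. The test was limma on log2(normalized value + 1) within the authors' table of the 6 wild-type libraries, with Benjamini-Hochberg adjustment over 14489 genes. It called 9 of 9 lower at an adjusted p under 0.05, where 33.8% of all genes were called lower. The median log2 fold change of the 9 was -2.71, and that of all genes tested was 0.04. In bulk samples of whole animals, fewer cells of a type and less RNA per cell cannot be told apart.

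The anterior pair were mex-5 and mex-6, which encode closely related CCCH zinc finger proteins that act partly redundantly at the front of the zygote. The transcript mex-5 (WBGene00003230, WBcel235 IV:13353723-13356104, plus strand) had 7813, 10275 and 7815 normalized counts in the wild-type control libraries and 1959, 2836 and 1500 on sqd-1 RNAi. The adr-2(-) libraries had 9003, 15957 and 13770 normalized counts on control RNAi and 3236, 8955 and 6765 on sqd-1 RNAi. Its highest sqd-1 RNAi library lay below its lowest control library within each genotype. In wild-type animals it fell by 2.12 ± 0.22 (SE) on the log2 scale (limma adjusted p = 5.89e-06).

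The transcript mex-6 (WBGene00003231, II:9524174-9526359, plus strand) had 3776, 4922 and 3684 normalized counts in the wild-type control libraries and 643.7, 1052 and 431.3 on sqd-1 RNAi. The adr-2(-) values were 3948, 6303 and 6762 normalized counts on control RNAi and 1254, 3513 and 3236 on sqd-1 RNAi. The groups did not overlap in either genotype. In wild-type animals it fell by 2.66 ± 0.263 on the log2 scale (limma adjusted p = 4.46e-06). How reads matching both mex-5 and mex-6 were assigned is not given in the sources used here.

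The next 3 genes encode RNA-binding proteins of early fate decisions. POS-1 is a CCCH zinc finger protein of the posterior cells that controls the translation of maternal transcripts. The transcript pos-1 (WBGene00004078, V:8414086-8415254, plus strand) had 5328, 7147 and 5717 normalized counts in wild-type control libraries and 853.9, 1297 and 437.9 on sqd-1 RNAi. On control RNAi the adr-2(-) libraries had 6493, 15391 and 9779 normalized counts and on sqd-1 RNAi 1679, 6808 and 4650. The wild-type groups were far apart, while the highest adr-2(-) sqd-1 RNAi library exceeded the lowest adr-2(-) control library. In wild-type animals pos-1 fell by 2.97 ± 0.301 on the log2 scale (limma adjusted p = 5.03e-06).

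MEX-1, another posterior CCCH protein, keeps muscle fate out of anterior cells. Its transcript mex-1 (WBGene00003228, II:11968637-11972330, plus strand) ranged from 2969 to 4010 normalized counts in wild-type control libraries and from 329.5 to 762.9 on sqd-1 RNAi. MEX-3 is a KH-domain protein that represses the posterior fate gene pal-1 in anterior cells. Its transcript mex-3 (WBGene00003229, I:127285-134270, plus strand) ranged from 4901 to 5689 normalized counts in wild-type control libraries and from 618.5 to 1397 on sqd-1 RNAi. Both genes therefore showed a gap between the wild-type groups. Their log2 fold changes in wild-type animals were -2.71 ± 0.257 for mex-1 and -2.53 ± 0.24 for mex-3 (limma adjusted p = 3.59e-06 and 3.7e-06).

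Among the germline factors, PIE-1 is a CCCH protein that silences transcription in the germline precursor cells. The transcript pie-1 (WBGene00004027, III:12426893-12429195, plus strand) had 798.5, 1090 and 829.8 normalized counts in wild-type control libraries and 163.6, 186.8 and 84.0 on sqd-1 RNAi. In the adr-2(-) strain it had 1035, 2550 and 1541 normalized counts on control RNAi and 261.5, 945.4 and 657.2 on sqd-1 RNAi. The groups did not overlap in either genotype, and in wild-type animals pie-1 fell by 2.74 ± 0.265 on the log2 scale (limma adjusted p = 3.92e-06).

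NOS-2 is a Nanos homologue needed by the primordial germ cells. The transcript nos-2 (WBGene00003784, II:7065618-7067051, plus strand) had 683.3, 1042 and 664.0 normalized counts in wild-type control libraries and 118.0, 140.1 and 39.8 on sqd-1 RNAi. Its adr-2(-) libraries had 855.5, 2171 and 1250 normalized counts on control RNAi and 255.7, 870.5 and 557.1 on sqd-1 RNAi. The third wild-type sqd-1 RNAi library was the lowest of the 12, with 54 reads behind its value, and the adr-2(-) groups overlapped narrowly. It had the lowest wild-type log2 fold change of the 9, -3.18 ± 0.37 (limma adjusted p = 1.19e-05).

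MEG-1 is a largely disordered protein of the P granules, the germline RNA condensates. The transcript meg-1 (WBGene00010492, X:13927036-13929634, minus strand) had 1449, 1934 and 1545 normalized counts in wild-type control libraries and 269.8, 391.1 and 61.9 on sqd-1 RNAi. With adr-2 lost it had 2229, 2923 and 2654 normalized counts on control RNAi and 888.3, 1720 and 1671 on sqd-1 RNAi. The groups did not overlap in either genotype, and the third wild-type sqd-1 RNAi library, with 84 reads, lay far below the other two. Its log2 fold change of -3.15 ± 0.477 in wild-type animals (limma adjusted p = 8.36e-05) became -2.36 without that library (adjusted p = 1.52e-07). Over the 22 alternatives, the adjusted p of the 9 genes in this comparison ranged from 2.52e-23 to 0.0143.

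MBK-2 is a DYRK-family kinase that is activated as the oocyte becomes an embryo and phosphorylates proteins such as MEX-5, MEX-6 and the OMA proteins. The transcript mbk-2 (WBGene00003150, IV:13009158-13035961, plus strand) had 4108, 4961 and 3699 normalized counts in wild-type control libraries and 2334, 2284 and 1925 on sqd-1 RNAi. Animals lacking adr-2 had 3952, 7123 and 5297 normalized counts on control RNAi and 2680, 4104 and 2991 on sqd-1 RNAi. It fell least of the 9 in wild-type animals, by 1.00 ± 0.165 on the log2 scale (limma adjusted p = 0.000168), and its adr-2(-) groups overlapped. Of all genes tested in wild-type animals, 16.3% had a lower log2 fold change than mbk-2, while for the other 8 this share was between 0.449% (nos-2) and 2.06% (mex-5). The spans of mex-1, pie-1, nos-2 and mbk-2 each overlap another protein-coding gene that lies on the opposite strand (acbp-6, snr-6, him-14 and F49E11.2), and mbk-2 also a piRNA gene on its own strand. Whether the read counting used strand is not given in the sources used here, so part of the reads of these 4 genes may belong to their neighbours.

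Scaling shifts all genes alike: with TMM scaling the median of all genes in wild-type animals moved from 0.04 to 0.18 and that of the 9 from -2.71 to -2.58, with all 9 still called lower. The calls over all genes split into 3957 higher and 4892 lower in the main test and into 5215 higher and 4169 lower with edgeR.

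By group means, sqd-1 RNAi left more of every transcript in adr-2(-) than in wild-type animals. Between 36.4% (pie-1) and 54.8% (meg-1) of the control level was left for 8 of them, and 59.7% for mbk-2. All 9 log2 fold changes were below 0, from -1.51 (pie-1) to -0.69 (mbk-2), with a median of -1.15 beside -0.03 over all genes tested. Without regard to pairing, limma called 0 of 9 (adjusted p 0.209 to 0.263), where 0.0284% of all genes were called in either direction. At an unadjusted p under 0.05 limma had 5 of 9, beside 21.2% of all genes, and both edgeR and the authors' deposited table called 0 of 9. Libraries with the same replicate number deviated together within this genotype, and with the replicate number as a block limma called 9 of 9 lower (adjusted p 0.00784 to 0.015), where 28.5% of all genes were called lower. Over the 22 alternatives the adjusted p of the 9 ranged from 0.0011 to 0.612.

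The calls over all genes with the block split into 2407 higher and 4004 lower with limma and into 3093 higher and 3083 lower with edgeR. The adr-2(-) groups were apart for 5 of the 9 genes, mex-1, mex-5, mex-6, pie-1 and meg-1, with every sqd-1 RNAi library below every control library. This was true of 16.2% of all genes tested. With the block pie-1 fell most, by 1.51 ± 0.202 on the log2 scale, and mbk-2 least, by 0.69 ± 0.103 (limma adjusted p = 0.00784 and 0.00792). The transcript meg-1 changed by -0.89 ± 0.188 with the block (limma adjusted p = 0.015), next to mbk-2 in the order. In wild-type animals it lay next to nos-2 at the other end, a place that rested on 1 library. Without the third wild-type sqd-1 RNAi library meg-1 was at -2.36, between mex-6 at -2.35 and mex-1 at -2.38.

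**Figure D2:**
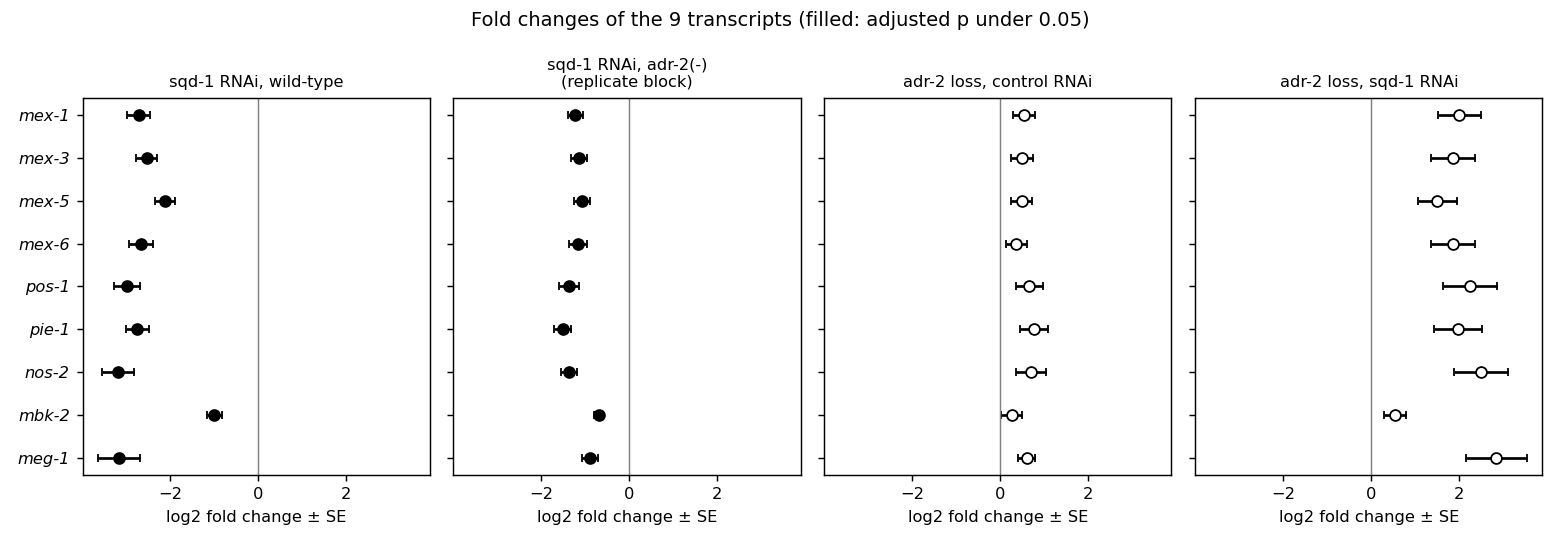
Log2 fold changes of the 9 transcripts (x axis, with standard errors as bars) for sqd-1 RNAi in wild-type, sqd-1 RNAi in adr-2(-) with the replicate block, adr-2 loss on control RNAi and adr-2 loss on sqd-1 RNAi. Filled points have an adjusted p under 0.05 in limma. They are all of the first panel (median -2.71), where 33.8% of all genes were called lower. They are also all of the second (median -1.15), where 28.5% of all genes were called lower. Only the second panel uses the block, and without it limma called 0 of 9 there. The open points of the other panels lie above 0.

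Changes were also taken within same-numbered pairs of libraries. For mex-1 the 3 wild-type pairs changed by -2.41, -2.39 and -3.22 on the log2 scale and the 3 adr-2(-) pairs by -1.62, -1.04 and -1.12. For meg-1 the wild-type pairs changed by -2.42, -2.30 and -4.62 and the adr-2(-) pairs by -1.33, -0.76 and -0.67. Every wild-type pair lay below every adr-2(-) pair for 8 of the 9 genes, which was true of 12.5% of the 14266 genes compared, and of 10.5% with all 6 pairs below 0. For mbk-2 the wild-type pairs ran from -1.12 to -0.82 and overlapped narrowly with the adr-2(-) pairs, which ran from -0.82 to -0.56. A two-sided exact permutation test of each gene gave p = 0.1 for the 8 genes and p = 0.2 for mbk-2. The smallest p that 3 pairs against 3 can give is 0.1, and any gene with its pairs fully apart reaches it. For the 8 genes the test therefore only restates that separation.

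The interaction, which is the sqd-1 RNAi effect in adr-2(-) animals minus that in wild-type animals, was positive for all 9, from 0.23 (mbk-2) to 2.20 (meg-1), with a median of 1.42 beside 0.05 over all genes tested. Without the third wild-type sqd-1 RNAi library the value of meg-1 was 1.40. It was fitted over all 12 libraries on one scale. Limma called 0 of 9 (adjusted p 1.0 for each), where 0% of all genes were called, and had 4 of 9 at an unadjusted p under 0.05, beside 1.44% of all genes. These 4 were mex-1, mex-6, nos-2 and meg-1. Both edgeR and DESeq2 called 0 of 9, and with the replicate block limma also called 0 of 9 (adjusted p 0.141 to 0.671). With the block the unadjusted limma p was 0.145 for mbk-2 and from 0.000645 (mex-1) to 0.00492 (pie-1 and meg-1) for the others. Of all 14266 genes, 1419 had an unadjusted p under 0.05 in that fit. A difference between genotypes in the response of these genes was thus not past the threshold when adjusted over all genes.

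**Figure D3:**
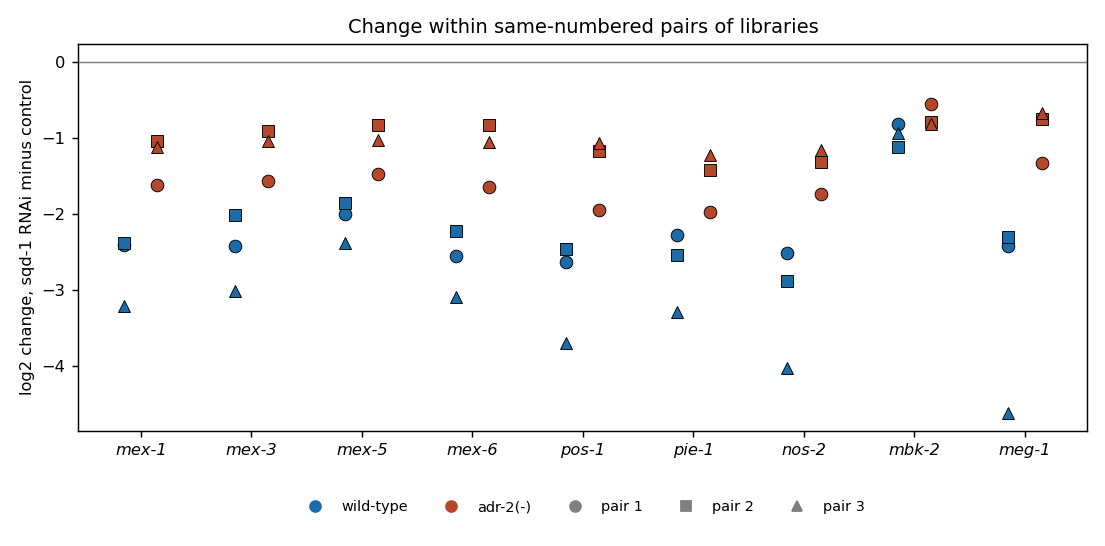
Log2 change from control to sqd-1 RNAi within each same-numbered pair of libraries (y axis) for each gene (x axis), in wild-type (blue) and adr-2(-) (red), with pairs by symbol. For 8 genes the 3 wild-type points lie below the 3 adr-2(-) points, as for 12.5% of all genes compared, and for mbk-2 they overlap at -0.82; the lowest point is meg-1 in the third wild-type pair at -4.62.

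Loss of adr-2 on control RNAi was accompanied by small positive log2 fold changes of all 9, from 0.26 (mbk-2) to 0.77 (pie-1), with a median of 0.54 beside -0.04 over all genes tested. Limma called 0 of 9 (adjusted p 0.6 to 0.671), where 0.00737% of all genes were called in either direction. The unadjusted p was under 0.05 for 2 of 9, pie-1 and meg-1, beside 7.43% of all genes, and edgeR and the authors' deposited table called 0 of 9. Only meg-1 had every adr-2(-) library above every wild-type one, which was true of 5.24% of all genes tested. The spread was wide in adr-2(-) animals: the second control library held the highest value of the 12 for 8 of the 9 genes, the exception being mex-6.

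On sqd-1 RNAi, adr-2(-) animals held more of all 9 transcripts than wild-type animals. Every adr-2(-) library lay above every wild-type library for 9 of 9 genes, which was true of 15.1% of all genes tested. The log2 fold changes ran from 0.55 (mbk-2) to 2.85 (meg-1), with a median of 1.97 beside -0.07 over all genes tested. Limma called 0 of 9 (adjusted p 0.388 to 0.425), where 0% of all genes were called in either direction, and edgeR also called 0 of 9. The unadjusted limma p was under 0.05 for 8 of 9, all but mbk-2, beside 12.1% of all genes. The authors' deposited table, made with DESeq2, called 8 of 9 higher, where it called 1.84% of all genes higher. In the authors' deposited table the log2 fold change of nos-2 was 2.49 ± 0.592 (adjusted p = 0.00955) and that of mbk-2 was 0.57 ± 0.312 (adjusted p = 0.444). Over the 18 alternatives the adjusted p of the 9 ranged from 0.00955 to 0.772. Of these alternatives only DESeq2 called any of the 9. This comparison shares its wild-type libraries with the sqd-1 RNAi comparison in wild-type animals and its adr-2(-) libraries with that in adr-2(-) animals.

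Within the adr-2(-) sqd-1 RNAi group the first library was the lowest for all 9 genes. For pos-1 it held 1679 normalized counts beside 6808 and 4650 in the other two. Without it the log2 fold change of pos-1 between genotypes on sqd-1 RNAi went from 2.24 to 2.83 (limma adjusted p = 0.0889). Without the third wild-type sqd-1 RNAi library that of meg-1 went from 2.85 to 2.06 (limma adjusted p = 0.772).

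Animals with both changes were also compared with wild-type animals on control RNAi. The 9 log2 fold changes ran from -0.76 (mex-6) to -0.26 (meg-1), with a median of -0.65 beside -0.09 over all genes tested. Limma called 0 of 9 (adjusted p 0.406 to 0.679), where 0.0422% of all genes were called in either direction. None had an unadjusted p under 0.05 in limma, beside 15.9% of all genes, and edgeR and the authors' deposited table called 0 of 9. Only mex-6 had every adr-2(-) sqd-1 RNAi library, at most 3513 normalized counts, below every wild-type control library, at least 3684. That 1 of 9 is near the share of all genes, 13.6%, for which this was true. The comparison shares groups with the preceding ones.

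The 9 transcripts moved together across the libraries. Over the 12 libraries the 36 pairs of genes had a Pearson r of log2 levels between 0.859 and 0.997, with a median of 0.986. The 28 pairs without mbk-2 ran from 0.942 to 0.997 and the 8 pairs with mbk-2 from 0.859 to 0.965. All points share the same 12 libraries, their scaling and the differences between groups. Such likeness was common: 1828 of 9374 genes compared, or 19.5%, had an r over 0.9 with the mean profile of the 9, and the median gene had 0.44. The 10 genes most like that profile were cbd-1, puf-5, gln-6, rme-2, gfat-2, gyg-2, W05F2.3, clec-87, egg-1 and C01G8.1, with r between 0.997 (C01G8.1) and 0.999 (cbd-1). Of these, cbd-1, puf-5 and rme-2 are also on the list of oocyte markers. By Spearman's rho egg-1 ranked first, and the others ranked as low as 290.

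Markers of several cell types moved with these results, most of all those of oocytes and sperm. The summed level of 8 oocyte markers was 105819 to 144492 normalized counts in wild-type control libraries and 16727 to 36944 on sqd-1 RNAi. It was 129029 to 264126 in the adr-2(-) libraries on control RNAi and 47273 to 122549 on sqd-1 RNAi. In wild-type animals 6 of the 8 oocyte markers fell, beside 33.8% of all genes, with a median log2 fold change of -2.68 over the 8. The remaining markers, perm-2 and perm-4, had log2 fold changes of -0.33 and -0.39 (limma adjusted p = 0.207 and 0.126). The summed level of 7 sperm markers went the other way, from 1279 to 1463 normalized counts in wild-type control libraries to between 5069 and 6584 on sqd-1 RNAi. The adr-2(-) sperm sum was 779.4 to 1152 on control RNAi and 1966 to 5313 on sqd-1 RNAi. All 7 sperm markers rose in wild-type animals in limma, with a median log2 fold change of 2.19. Of all 14489 genes tested there, 3957 were called higher. Among somatic markers in wild-type animals, 3 of 4 of hypodermis rose (median log2 fold change 1.62 over the 4), 3 of 4 of body wall muscle (0.49), 2 of 5 of gonadal sheath and spermatheca (0.48) and 1 of 4 of intestine (-0.07). Of 4 neuronal markers 2 rose and 1 fell (median 0.08). The summed level of the hypodermal markers was 1176 to 1572 normalized counts in wild-type control libraries and 2038 to 3213 on sqd-1 RNAi, and in adr-2(-) libraries 1239 to 2926 and 975.4 to 4808. Between genotypes on sqd-1 RNAi the median log2 fold change of the hypodermal markers was -1.12, with 0 of 4 called by limma. For the 8 oocyte markers that median was 2.03, beside 1.97 for the 9 transcripts, with 8 above 0 and 0 called. The interaction of the oocyte markers had a median of 1.35, beside 1.42 for the 9, with 7 above 0 and 1 below. The part of cell type content in the change of the 9 transcripts was not tested.

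Set against the mean log2 level of the 8 oocyte markers in the same library, the wild-type change of the 9 on sqd-1 RNAi had a median of -0.59, and set against their median level it was -0.94. The reference itself changed by -2.09 as a mean and by -1.73 as a median of the levels. Among the markers perm-2 and perm-4 moved little. The median of the 8 markers' own log2 fold changes was -2.68, beside -2.71 for the 9 transcripts. The transcript mex-5 changed by 0.01 relative to the mean of the markers, nos-2 by -1.05, meg-1 by -1.02 and mbk-2 by 1.13. Relative to their median level, mex-5 changed by -0.35, nos-2 by -1.41, meg-1 by -1.38 and mbk-2 by 0.77. For the adr-2(-) strain the median relative change of the 9 was -0.14 against the mean of the markers and -0.24 against their median.

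**Figure D4:**
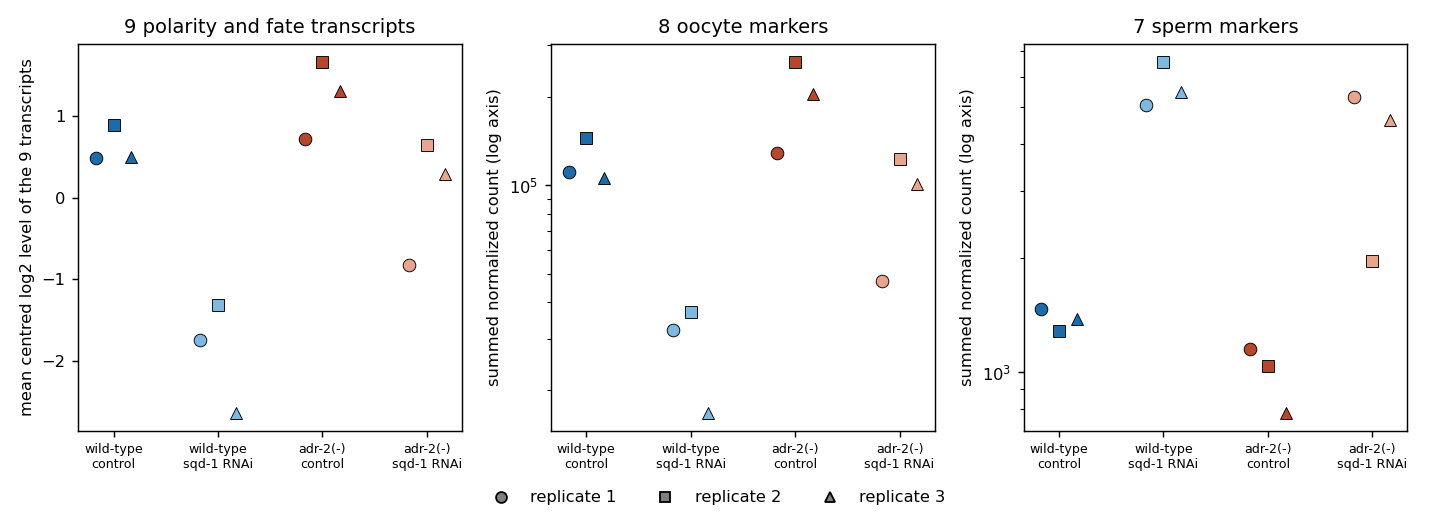
Mean centred log2 level of the 9 transcripts (left), summed normalized count of 8 oocyte markers (middle, log axis) and of 7 sperm markers (right, log axis) in each library by group, with replicates by symbol. The 9 transcripts and the oocyte markers share their lowest library, the third of wild-type sqd-1 RNAi at -2.64 and 16727, and all sqd-1 RNAi libraries exceed all control libraries of both genotypes in the sperm markers.

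Other genes of the same pathways are given by lists whose members do not include the 9. For comparison, limma called 33.8% of all genes lower and 3957 of 14489 higher in wild-type animals on sqd-1 RNAi. Of 16 genes of the PAR polarity network, which divides the zygote cortex into anterior and posterior domains, 14 fell and 0 rose in wild-type animals on sqd-1 RNAi (limma), with a median log2 fold change of -0.98. The largest falls were those of chin-1, a GTPase-activating protein of CDC-42, by 1.81 ± 0.181 on the log2 scale, and of let-99, a spindle positioning factor, by 1.74 ± 0.194 (limma adjusted p = 4.84e-06 and 9.15e-06). Of 18 other maternal RNA regulators 17 fell and 0 rose, with a median of -2.41. They were led by oma-2, a zinc finger protein of oocyte maturation that went from 4310 ± 812.0 (SD, n = 3) to 520.8 ± 286.0 normalized counts, and by spn-4, which went from 7991 ± 1490 to 1046 ± 513.3. Of these 18, oma-1 and puf-5 are also oocyte markers.

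Of the 12 fate genes found among the 13 listed, many of them translationally controlled by the RNA-binding proteins above, 11 fell and 1 rose in wild-type animals, with a median of -1.65. The Wnt ligand gene mom-2 fell by 2.59 ± 0.219 and zif-1, whose product targets zinc finger proteins such as PIE-1 for degradation, by 2.50 ± 0.23 on the log2 scale (limma adjusted p = 2.22e-06 and 3.26e-06). The Notch receptor gene lin-12 rose by 0.63 ± 0.25 (limma adjusted p = 0.0429), from 68.4 ± 21.9 to 105.0 ± 4.51 normalized counts (SD, n = 3).

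Of 14 genes of egg activation and of the pathway around MBK-2, all 14 fell, with a median of -2.55. The eggshell chitin synthase gene chs-1 fell by 3.30 ± 0.215 and the chitin-binding gene cbd-1 by 2.92 ± 0.293 (limma adjusted p = 9.02e-07 and 4.91e-06). The change of mbk-2 was smaller than the median of that list. Of 13 partners of the P granules 10 fell and 0 rose, with a median of -1.36, led by meg-3 at -2.88 ± 0.39 and meg-4 at -2.58 ± 0.34, which encode P granule scaffold proteins (limma adjusted p = 3.54e-05 and 2.97e-05). Of the 17 genes listed as zygotic, 15 were found, 2 passed the filter and 0 were called by limma.

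Without the block, limma in adr-2(-) animals called 0 genes of these lists, beside 0.0284% of all genes. With the block it called 28.5% of all genes lower. Called lower were 14 of 16 polarity genes, 17 of 18 RNA regulators and 10 of 12 fate genes. So were 13 of 14 egg activation genes and 9 of 13 P granule partners. The lists' median log2 fold changes were -0.71, -1.24, -0.95, -1.19 and -0.87 in that order. With the block mom-2 fell by 1.31 ± 0.141, while lin-12 had a log2 fold change of 0.03 ± 0.235 (limma adjusted p = 0.00784 and 0.919).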

How the data were processed

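The authors deposited 5 pairwise tables of 6 libraries each. Per the file headers, each holds a normalized signal per gene and library and, for the comparison, a log2 fold change, its error, a test score (the Wald statistic) and raw and adjusted p-values. Per the submitters' processing notes, STAR (version 2.7.10b) and DESeq2 were used; the counting tool, its use of strand and the genome build are not given in the sources used here. The growth time is given as 72 h in one label and 60 h in another. The deposited signal is reads divided by 1 size factor per library within a table. Undoing the factors gave whole reads for 100% of the 667263 values checked (within 0.05 read), and 0 of these differed between tables. In the table of both changes against wild-type control, the first wild-type control library was left out of this check. Its reads came from the other tables. Coordinates and exon lengths are from the Ensembl WBcel235 annotation, which holds 24602 of the 24619 gene IDs.

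Each comparison was fitted within its own table with limma (version 3.58.1, R 4.3.3, eBayes with a trend) after taking log2(value + 1) of the genes whose mean reached 10. Genes were called at a Benjamini-Hochberg adjusted p under 0.05 over all genes tested. On this scale low genes change by less than their true fold. The interaction and all levels use the 12 libraries on median-of-ratios factors. Levels and fold changes therefore rest on slightly different scaling. Alternatives were pseudocounts of 0.1 and 10, dropping the filter or raising it to 50, other scalings, eBayes without a trend, edgeR (version 4.0.16) and DESeq2 (version 1.42.0) on the recovered reads, all 12 libraries together, the replicate block and leaving out each library.

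As a check of pairing, each library's deviations from its group mean were correlated over genes with those of the other group of its genotype. Same numbers gave 0.24 to 0.27 in wild-type and 0.64 to 0.82 in adr-2(-), while unlike numbers reached at most -0.09 and 0.17. Deviations from a group mean cancel within the group, so the unlike values are tied to the same-number values and are not separate evidence. The numbers were therefore taken to pair libraries within a genotype; between genotypes they ran from -0.52 to 0.21 and pair nothing. What a number stands for is not in the labels. No replicates were copies of each other (chi-square per degree of freedom 21.57 to 480.78). All 9 genes were named, and by rule, for each pathway list, up to 2 called genes with the largest rise and 2 with the largest fall in wild-type animals, and the 10 genes most like the mean profile with a mean of at least 100. The members and lists were chosen with earlier results of these data known.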

Additional observations from a re-analysis of the deposited data

How the results depend on the processing

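In wild-type animals on sqd-1 RNAi, all 198 recomputed log2 fold changes of the 9 genes kept their direction and their call, and the range over all settings was -3.69 to -0.79. In adr-2(-) animals on sqd-1 RNAi, the number of the 9 genes called was 0 without the block and 9 with the replicate block. It was also 9 for edgeR with the block and for TMM scaling with the block, and 1 (pie-1) for all 12 libraries together. Leaving out libraries gave 0 to 9 calls: 0 for each single library without the block, and 9 for each pair left out under the block. The 2 latter fits with the block, and leaving out pairs, were chosen after seeing the data. On sqd-1 RNAi, DESeq2 called 8 of the 9 higher in adr-2(-) than in wild-type animals, and the other settings called 0. Of the 162 log2 fold changes recomputed for animals with both changes, 1 changed sign: meg-1, at -0.26, ran from -0.44 to 0.066 when single libraries were left out, and was above 0 only without the first adr-2(-) sqd-1 RNAi library. All 162 values for adr-2 loss on control RNAi and all 270 for the interaction kept their direction and stayed uncalled. Apart from the adr-2(-) comparison on sqd-1 RNAi, the replicate block changed no call of the 9 genes. The causes of these differences between settings were not tested. As a limit of depth, nos-2 and meg-1 rest on under 100 reads in 1 wild-type library.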

Other observations

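The ratio of mex-5 to mex-6 and the count of mbk-2 relative to the other 8 genes were examined after their values had been seen. They are therefore given without a test. Both use normalized counts not divided by exon length, so only their changes between groups can be read. In the wild-type control group mex-5 exceeded mex-6 by 1.07 ± 0.02 on the log2 scale (SD, n = 3), and on sqd-1 RNAi by 1.61 ± 0.18. The 3 sqd-1 RNAi libraries, from 1.43 to 1.80, lay above the 3 control libraries, from 1.05 to 1.08. In adr-2(-) animals the difference was 1.18 ± 0.16 on control RNAi and 1.26 ± 0.17 on sqd-1 RNAi. Per kb of exon, mbk-2 had only rank 6 in the wild-type control group, at 878.8 normalized counts. Its log2 count, with 4.84 kb of exon, exceeded the mean log2 count of the other 8 genes by 0.58 ± 0.10 there and by 2.34 ± 0.61 on sqd-1 RNAi. In adr-2(-) animals it did so by 0.26 ± 0.09 on control RNAi and by 0.79 ± 0.59 on sqd-1 RNAi.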
